A study of Mus musculus with 12 samples.

Results

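The Fc gamma receptors of the mouse, with the signalling chain they share, were followed across the 12 tumor libraries of the study. The members were the rows of the expression table with the symbols Fcgr1, Fcgr2b, Fcgr3, Fcgr4 and Fcer1g, which are 5 of 55401 genes. All 5 passed the filter on low values, as did 15504 genes in all. The tumors were orthotopic mammary tumors of 4T1, an established mouse breast cancer line, in Balb/c mice, and RNA of whole tumor tissue was sequenced. Each of 4 groups had 3 tumors, 1 library each. The control IgG group received an isotype antibody. The αCSF1R group received an antibody that blocks CSF1R, a growth factor receptor on which most macrophages depend. The IL-10-Fc group received interleukin-10 joined to an antibody Fc part. The BF10 group received the αCSF1R antibody, a mouse IgG2a, with human IL-10 fused to its heavy chain. Treatment began at a tumor volume of 100 mm3 in every group, and the sample labels give 6 doses while the series text gives a lower number. No source says whether animals shared a cage or a day, so p-values measure only the spread between these tumor libraries.

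Fc gamma receptors bind the constant part of IgG and tie antibodies to the cells of the innate immune system. Fcgr1 encodes the high-affinity receptor FcγRI, and Fcgr3 and Fcgr4 encode the activating receptors FcγRIII and FcγRIV. These 3 receptors signal through the common gamma chain, the product of Fcer1g, which carries the activation motif called ITAM and is also needed to bring them to the cell surface. Fcgr2b encodes FcγRIIB, the inhibitory receptor, which carries its own inhibitory motif and does not use the gamma chain. Macrophages and monocytes usually express all 5 genes, neutrophils and mast cells some of them, NK cells mainly Fcgr3 with Fcer1g, and B cells Fcgr2b alone. The agents of this study are themselves proteins with an Fc part, and the comparison asked how the receptor transcripts stood under each of them. In whole tumor RNA, fewer cells of a type and less RNA per cell cannot be told apart.

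In the mouse genome (GRCm38) 4 of the 5 genes lie within 276 kb of chromosome 1. Fcgr2b spans chr1:170958617-170976547 on the minus strand, Fcgr4 chr1:171018920-171029761 on the plus strand, Fcgr3 chr1:171051174-171064935 on the minus strand and Fcer1g chr1:171229572-171234365 on the minus strand. Fcgr1 lies apart, at chr3:96282909-96293969 on the minus strand. All 5 are annotated as protein coding. Fcgr2b and Fcgr3 are near relatives, and their reads can be hard to assign. Their longest coding sequences in GENCODE M21 were identical at 83.5% of the 776 aligned bases, against 59.4% to 64.2% for the other pairs among the 4 receptors. The longest identical stretch held 129 bases, printed here because a read of 75 bases from inside it fits either gene. It crosses an exon junction in each gene (chr1:170966674-170968081 for Fcgr2b and chr1:171054167-171057792 for Fcgr3, both on the minus strand):
Fcgr2b and Fcgr3, shared coding stretch: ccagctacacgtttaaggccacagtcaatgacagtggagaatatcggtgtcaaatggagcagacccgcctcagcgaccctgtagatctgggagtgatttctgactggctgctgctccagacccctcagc
Of all distinct 75-base words in the annotated transcripts, 1.63% of those of Fcgr2b and 5.42% of those of Fcgr3 occurred in the other gene. A further 1.07% of the words of Fcgr2b occurred in genes outside the 5. Fcgr1, Fcgr4 and Fcer1g shared none with any other gene (0%). The sum of Fcgr2b and Fcgr3 is given beside their separate values below. As a sum of levels per length, it too can shift with how shared reads were split or dropped.

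The 250 bases before each transcription start in RefSeq (GRCm38.p6) were searched on both strands for 3 short motifs of factors that act in myeloid cells, and the stretches with a match are shown with the match in capitals. The motifs were GAGGAAG, a core bound by PU.1-type ETS factors, TTCNNNGAA, the GAS element of STAT factors, and the ISRE core of IRF factors, which is a pair of GAAA runs spaced by any 2 bases. None of the motifs overlapped another in these stretches. Each stretch is 120 bases, written 5′ to 3′ along the gene and free of annotated exons:
Fcgr1, chr3:96293970-96294089, minus strand: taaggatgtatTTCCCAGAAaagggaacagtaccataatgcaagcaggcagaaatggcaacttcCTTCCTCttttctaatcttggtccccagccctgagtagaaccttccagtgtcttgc
Fcgr3, chr1:171059404-171059523, minus strand: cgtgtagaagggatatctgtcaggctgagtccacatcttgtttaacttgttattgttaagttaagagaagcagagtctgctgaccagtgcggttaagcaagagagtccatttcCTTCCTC
Fcgr4, chr1:171018800-171018919, plus strand: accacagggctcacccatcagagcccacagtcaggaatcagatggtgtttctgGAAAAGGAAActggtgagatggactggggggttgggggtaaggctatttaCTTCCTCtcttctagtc
The 3 activating receptors each held the PU.1-type core, read on the opposite strand as CTTCCTC, at 56 to 50 bases before the start in Fcgr1, 7 to 1 in Fcgr3 and 23 to 17 in Fcgr4. Fcgr1 also held a GAS match, as TTCCCAGAA, and Fcgr4 an ISRE match, as GAAAAGGAAA. None of the 3 letter patterns was in the windows of Fcgr2b or Fcer1g. The Fcgr2b window is not like the others, since 203 of its 250 bases are annotated as exon. Over all 32851 windows of this length the PU.1-type core was in 10.6%, the GAS pattern in 7.02% and the ISRE pattern in 2.98%. A match describes letters and is not evidence of binding.

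The libraries were of like depth, estimated at 31000000 to 36100000 reads, but fell into 2 sets by the sum of their deposited values. That sum was 782919 to 921581 in 5 libraries (control replicates 4 and 7, IL-10-Fc replicate 7, αCSF1R replicate 8 and BF10 replicate 6), called higher-sum here, and 609695 to 648413 in the other 7. Ribosomal protein genes held 20.98% to 25.3% of transcripts in the higher-sum set and 13.04% to 15.6% in the lower-sum set. Every group has libraries of both sets, and values within each set are given beside the pooled ones. A pair of libraries also stood apart by cell markers. The summed level of 6 B cell markers was 74.4 TPM in control replicate 7 against 0.890 to 6.02 TPM in the other 11 libraries, and that of 8 neutrophil markers was 16504 TPM in BF10 replicate 3 against 433 to 3348 TPM elsewhere. TPM is a level per transcript length with a total of 1000000 in each library. The tumor label was checked with 6 tumor epithelium markers, whose summed level was 754 to 2503 TPM in αCSF1R and 1122 to 2434 TPM in control IgG libraries.

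The gene of the high-affinity receptor, Fcgr1, was the least abundant of the 5 and showed the widest gap. Its levels in control IgG tumors were 42.5, 36.4 and 38.7 TPM in replicates 4, 5 and 7. In αCSF1R tumors they were 5.98, 4.17 and 2.45 TPM in replicates 4, 6 and 8. The lowest of the 9 libraries of the other groups was thus 5.29-fold above the highest αCSF1R library. In IL-10-Fc tumors Fcgr1 stood at 31.6, 33.9 and 32.3 TPM in replicates 2, 4 and 7, and in BF10 tumors at 52.6, 46.8 and 43.9 TPM in replicates 3, 6 and 7. These 3 groups did not overlap one another, with BF10 above control IgG and IL-10-Fc below it. No other member separated them in this way. Among all genes tested, 2.36% lay wholly higher in BF10 than in control IgG, 1.78% wholly lower in IL-10-Fc than in control IgG and 0.619% wholly higher in BF10 than in IL-10-Fc. The steps between the 3 groups did not pass the test given below.

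Fcgr3, the low-affinity activating receptor of macrophages, NK cells and mast cells, was 187, 137 and 210 TPM in the control IgG replicates 4, 5 and 7. It was 37.6, 27.8 and 31.2 TPM in the αCSF1R replicates 4, 6 and 8. Again no αCSF1R library reached the others, the gap being 3.53-fold. In IL-10-Fc tumors it was 132, 149 and 152 TPM and in BF10 tumors 174, 177 and 147 TPM, both overlapping control IgG. Fcgr4, a receptor for IgG2a and IgG2b on macrophages, monocytes and neutrophils, varied widely among control tumors. Its control IgG levels were 105, 49.8 and 123 TPM, with the low value in replicate 5, the lower-sum library of that group. The αCSF1R levels were 16.6, 11.9 and 19.7 TPM, with the highest value in replicate 8, the library in which Fcgr1 was lowest. Replicate 8 is the higher-sum library of that group. Its neutrophil markers summed to 3348 TPM, against 1011 and 433 TPM in replicates 4 and 6, and their part in its Fcgr4 level was not tested. Fcgr4 levels were 70.4, 72.6 and 65.5 TPM under IL-10-Fc and 98.7, 76.4 and 72.4 TPM under BF10. All of these lie inside the control IgG range, and the gap down to the αCSF1R group was 2.53-fold.

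Fcgr2b, the inhibitory receptor, was 223, 167 and 236 TPM in control IgG tumors and 60.8, 47.2 and 52.7 TPM in αCSF1R tumors. This was the smallest fall of the group mean among the 5 genes. The gap from the highest αCSF1R library to the lowest of the other 9 was 2.73-fold, while the narrowest gap was that of Fcgr4. Under IL-10-Fc it was 179, 215 and 200 TPM and under BF10 254, 166 and 209 TPM, so both groups overlapped control IgG. The sum of Fcgr2b and Fcgr3 averaged 387 ± 73.6 TPM (SD, n = 3) in control IgG tumors and 85.8 ± 11.8 TPM in αCSF1R tumors, which is 4.51-fold lower. Fcer1g, the shared signalling chain, was the most abundant member in all 9 libraries outside the αCSF1R group. It was 249, 221 and 255 TPM under control IgG and 54.5, 46.4 and 43.8 TPM under αCSF1R. IL-10-Fc tumors held 213, 255 and 236 TPM and BF10 tumors 387, 237 and 247 TPM. The value of 387 TPM is that of replicate 3, the library with the high neutrophil markers, whose part in it was not tested. The gap from the αCSF1R group to the other 9 libraries was 3.92-fold.

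**Figure D1:**
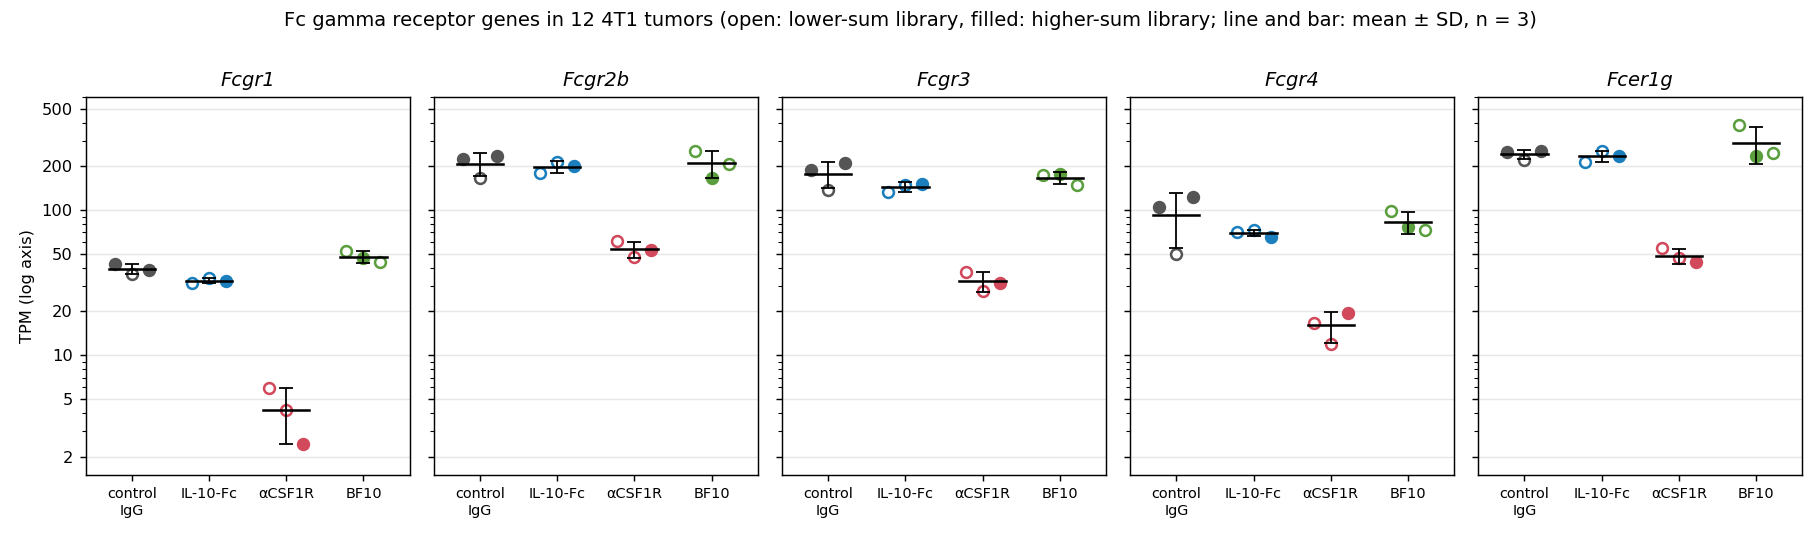
Level of each of the 5 genes (TPM, log axis) in the 12 libraries, with 1 point for each tumor, open for lower-sum and filled for higher-sum libraries, and a line and bar for the mean ± SD of 3 tumors. The 3 αCSF1R points lie below the other 9 in every panel, and Fcgr1 falls farthest, to between 2.45 and 5.98 TPM.

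The order of the levels also differed in the αCSF1R group. In 8 libraries outside the αCSF1R group it ran Fcer1g, Fcgr2b, Fcgr3, Fcgr4, Fcgr1 from high to low, and in BF10 replicate 6 Fcgr3 and Fcgr2b changed places. In all 3 αCSF1R libraries Fcgr2b stood above Fcer1g, though in replicate 6 by little, at 47.2 against 46.4 TPM. By group means Fcer1g at 242 ± 18.0 TPM and Fcgr2b at 209 ± 36.6 TPM lay within the spread of control IgG tumors, and so did Fcgr2b and Fcgr3 at 178 ± 37.1 TPM. The steps down to Fcgr4 at 92.6 ± 38.12 TPM and to Fcgr1 at 39.2 ± 3.07 TPM were wider. Relative to all genes tested, the control IgG mean of Fcer1g was above that of 96.6% of genes and that of Fcgr1 above 79.5%. In the αCSF1R group these positions were 80.0% and 28.4%.

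All 5 transcripts were lower under αCSF1R than under control IgG. The limma fit used all 12 libraries on log2(TPM + 1), and a gene was called when its p, adjusted by Benjamini-Hochberg over all tested genes, was below 0.05 and its change at least 1.5-fold. All 5 of 5 members were called lower, where 0.568% of the tested genes (88 of 15504) were called lower. Every αCSF1R library lay below all 9 others for each member, as it did for 2.46% of tested genes. Fcgr1 fell by 3.01 on the log2 scale (SE 0.27, limma adjusted p = 0.000459). Fcgr3 fell by 2.42 (SE 0.21, limma adjusted p = 0.000459), Fcgr4 by a log2 change of -2.38 (SE 0.33, adjusted p = 0.00631), Fcer1g by -2.31 (SE 0.22, adjusted p = 0.000685) and Fcgr2b by -1.94 (SE 0.22, adjusted p = 0.00241). The αCSF1R mean was 10.7% of the control IgG mean for Fcgr1, 17.4% for Fcgr4, 18.1% for Fcgr3, 19.9% for Fcer1g and 25.6% for Fcgr2b. The median of the members was -2.38, beside a median of 0.24 over all tested genes. Within the lower-sum libraries (2 αCSF1R, 1 control IgG) the changes of the 5 genes were -2.64 to -1.62. Within the higher-sum libraries (1 αCSF1R, 2 control IgG) they were -3.59 to -2.10. Without control replicate 7, the library with the B cell markers, all 5 calls held, and Fcgr2b, the member that B cells also express, changed by -1.84 (limma adjusted p = 0.0195). When libraries were scaled instead by the median ratio of their genes to a mean library, which moved the median of all genes from 0.24 to 0.03, 3 of 5 were called (Fcgr1, Fcgr3 and Fcer1g). When the fit used the 6 libraries compared alone, 0 of 5 were called (limma adjusted p = 0.0729 to 0.231), with all 5 at an unadjusted p of 0.000925 or below and 4 genes called in all.

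BF10 and αCSF1R share the antibody against CSF1R and differ by the IL-10 on its heavy chain. All 5 members were higher in BF10 tumors, where 0.735% of tested genes (114) were called higher. Fcgr1 was higher by 3.28 on the log2 scale (SE 0.27, limma adjusted p = 0.000342), an 11.4-fold ratio of mean TPM. Fcer1g was higher by 2.53 (limma adjusted p = 0.000442), Fcgr3 by 2.34, Fcgr4 by 2.30 and Fcgr2b by 1.93 (adjusted p = 0.00242). Within the lower-sum libraries (2 of each group) the differences of the 5 genes were 2.08 to 3.03. Within the higher-sum libraries, with only 1 of each group, they were 1.64 to 3.79. Without BF10 replicate 3, Fcer1g was still higher by 2.31 (limma adjusted p = 0.00222), while Fcgr4 at 2.17 passed no longer (adjusted p = 0.0520). IL-10-Fc tumors also exceeded αCSF1R tumors for 5 of 5 members, against 0.542% of tested genes called higher (84). These differences, which share the αCSF1R libraries with the BF10 ones, were 2.75 for Fcgr1, 2.26 for Fcer1g, 2.14 for Fcgr3, 2.07 for Fcgr4 and 1.87 for Fcgr2b. With the median of ratios, Fcgr1 and Fcer1g were called against BF10 and Fcgr1 against IL-10-Fc. With the 6 libraries compared alone, 0 of 5 were called against BF10 (limma adjusted p = 0.0850 to 0.126, unadjusted p of 0.000229 or below) and 1, Fcer1g, against IL-10-Fc (adjusted p = 0.0373 to 0.0748 over the 5).

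**Figure D2:**
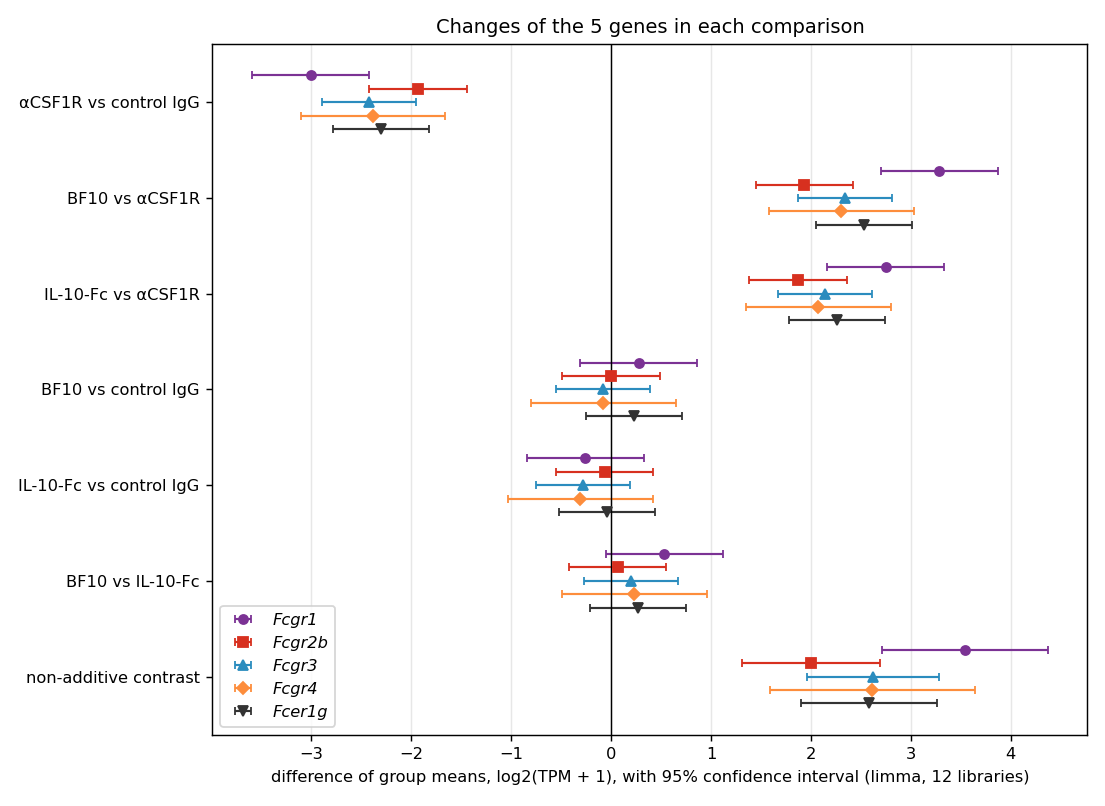
Difference between group means of each gene on the log2(TPM + 1) scale, with its 95% confidence interval from limma, for the 6 pairs of groups and the non-additive contrast. Intervals that involve αCSF1R against another group lie clear of 0 for all 5 genes, from -3.59 to -1.45 against control IgG, and those among the other 3 groups include 0.

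Among control IgG, IL-10-Fc and BF10 tumors, no member was called by limma. BF10 against control IgG gave 0 of 5 calls (0.0% of all tested genes), IL-10-Fc against control IgG 0 of 5 (0.00645%) and BF10 against IL-10-Fc 0 of 5 (0.0%). Of the 15504 tested genes 234, 224 and 42 reached an unadjusted p of 0.05 by limma, and 581, 574 and 141 did with the library set as a term. With all 12 libraries and no term beside the group, none of the 15 member tests reached an unadjusted p of 0.05. The difference nearest to it was that of Fcgr1 between BF10 and IL-10-Fc, at 0.53 on the log2 scale with a 95% interval of -0.05 to 1.12 (limma unadjusted p = 0.0704, adjusted p = 1). This Fcgr1 difference had a limma unadjusted p of 0.0283 with the library set as a term and of 0.0246 with the 6 libraries compared alone. It was not called in either fit and ranged from 0.46 to 0.60 over all refits. For BF10 against control IgG, Fcgr1 differed by 0.28 (95% interval -0.31 to 0.86) and Fcer1g by 0.23 (-0.25 to 0.71), and the sign of these 2 turned with the median of ratios. For Fcgr2b the difference was -0.00079 with an interval of -0.49 to 0.49, for Fcgr3 -0.08 (-0.55 to 0.39) and for Fcgr4 -0.08 (-0.80 to 0.65). IL-10-Fc minus control IgG was below 0 for all 5 members, from -0.31 for Fcgr4 (95% interval -1.04 to 0.41) and -0.28 for Fcgr3 (-0.75 to 0.19) to -0.04 for Fcer1g (-0.52 to 0.44). The intervals give the range of differences that these 3 tumors a group do not exclude at 95%. Against the median of all genes, which was 0.32 higher in BF10 and 0.35 higher in IL-10-Fc than in control IgG, the members' medians were -0.00079 and -0.26. Within the lower-sum libraries (2 BF10, 1 control IgG) BF10 minus control IgG was 0.22 to 0.75 over the 5 genes. Within the higher-sum libraries (1 BF10, 2 control IgG) it was -0.57 to 0.20.

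The non-additive contrast asks whether the difference between BF10 and IL-10-Fc departs from that between αCSF1R and control IgG. It was above 0 for all 5 members and was called for 4 of 5, against 0.284% of tested genes called higher (44). It was 3.54 for Fcgr1 (SE 0.38, limma adjusted p = 0.00416), 2.62 for Fcgr3 (adjusted p = 0.00590), 2.58 for Fcer1g (adjusted p = 0.00795) and 2.00 for Fcgr2b (adjusted p = 0.0310). Fcgr4 gave 2.61 with a wider SE of 0.46 and missed the threshold (limma adjusted p = 0.0555). With a term for the library set, all 5 of 5 were called, beside 1.19% of tested genes (185), and with the median of ratios 1 of 5 was, Fcgr1. Fcgr2b is the least firm of the 4, since its call was lost in 10 of 12 fits that left out 1 library. The test for any difference among the 4 groups called all 5 members, where 0.522% of tested genes (81) were called, with limma adjusted p from 0.000752 for Fcgr1 to 0.0131 for Fcgr4.

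Levels of the activating receptors were also set against that of Fcgr2b within each library. The ratio of the summed activating receptors (Fcgr1, Fcgr3 and Fcgr4) to Fcgr2b within a library was 1.499, 1.34 and 1.57 in control IgG tumors and 0.990, 0.930 and 1.01 in αCSF1R tumors. It was 1.31, 1.19 and 1.25 in IL-10-Fc tumors and 1.28, 1.81 and 1.26 in BF10 tumors, so the 3 αCSF1R libraries lay below the other 9. Group means were 1.47 ± 0.12, 0.977 ± 0.042, 1.25 ± 0.064 and 1.45 ± 0.31 in that order (SD, n = 3), and the BF10 mean rests on replicate 6 at 1.81. As a share of the 4 receptor transcripts, Fcgr2b made up 50.6% ± 1.08 in αCSF1R tumors, 40.6% ± 2.03 in control IgG tumors, 44.5% ± 1.26 under IL-10-Fc and 41.2% ± 4.86 under BF10. Fcgr1 made up 3.94% ± 1.43 in αCSF1R tumors and 7.77% ± 1.48 in control IgG tumors. Its ratio to Fcgr2b was 0.0465 to 0.0984 in αCSF1R libraries and at least 0.158 in the others. Fcgr3 stood at 0.589 to 0.618 of Fcgr2b in αCSF1R tumors and at 0.684 or more elsewhere. For Fcgr4 the ratio to Fcgr2b overlapped between αCSF1R (0.253 to 0.373) and control IgG (0.298 to 0.521). The ratio of Fcer1g to the sum of the 4 receptors was 0.458 ± 0.049 in αCSF1R tumors and 0.477 ± 0.078 in control IgG tumors, which overlapped. No test was run on these ratios.

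**Figure D3:**
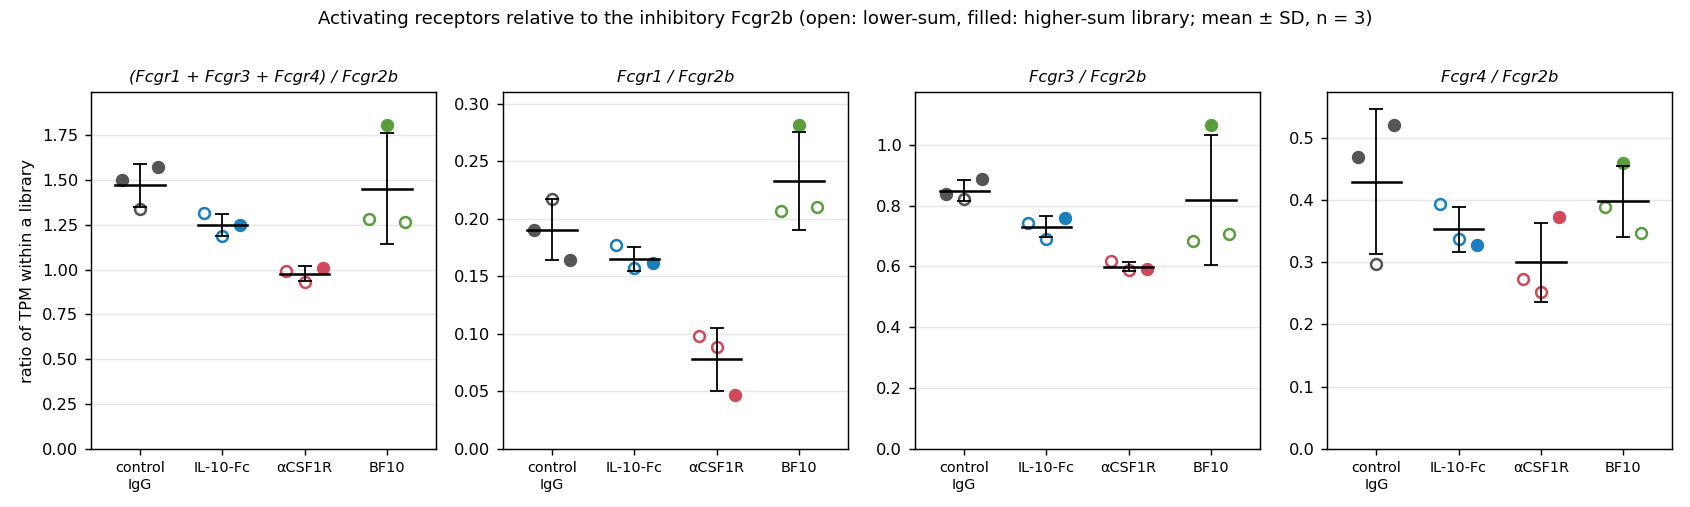
Ratio of activating receptor levels to the level of Fcgr2b within each library, by group, with open points for lower-sum and filled points for higher-sum libraries and the mean ± SD of 3 tumors. The αCSF1R points lie lowest for the summed ratio (0.930 to 1.01), for Fcgr1 and for Fcgr3, and overlap the other groups for Fcgr4.

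Over the 12 libraries the members followed one another, with Pearson's r of 0.932 to 0.988 for the 10 pairs on log2(TPM + 1). Over the 9 libraries outside the αCSF1R group r was 0.356 to 0.876. These are descriptions over libraries that share their treatment groups. The gene most like Fcgr1 was Ms4a6c, a membrane protein gene of macrophages and monocytes (r = 0.997), followed by Aif1, which encodes the macrophage protein Iba1 (0.992), and Cfp, which encodes properdin (0.985). Ms4a6c averaged 77.7 ± 8.57 TPM in control IgG tumors, 10.1 ± 3.51 in αCSF1R, 76.1 ± 7.02 in IL-10-Fc and 101 ± 8.12 in BF10 tumors. For Fcgr3 the nearest genes were Ctss, the lysosomal protease cathepsin S (0.996), Pycard, the inflammasome adaptor ASC (0.996), and P2ry12, an ADP receptor (0.994). For Fcgr4 they were Pycard (0.982), Ctss (0.981) and Plek (0.981), which encodes pleckstrin. For Fcgr2b they were Cd300c2 (0.992), Klra2 (0.982) and Pilra (0.981), which encode receptors of the leukocyte surface. For Fcer1g they were Cd300c2 (0.990), Lpxn (0.987) and the collagen receptor gene Lair1 (0.987). Cd300c2 averaged 31.2 ± 6.65 TPM under control IgG and 5.69 ± 1.49 under αCSF1R.

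The other genes of the pathway changed less uniformly than the receptors. The ligands, 4 IgG heavy chain genes, gave 0 calls of 4 by limma between αCSF1R and control IgG, with a list median of -0.03. Ighg1, Ighg2b, Ighg2c and Ighg3 changed by -1.09, 0.29, -0.36 and 0.65 on the log2 scale, with SEs of 1.04 to 1.31, and control replicate 7 alone held 350 TPM of them in sum against 5.57 and 12.3 TPM in the other control IgG libraries. Of 13 other Fc receptors 5 were expressed enough to be tested, among them Fcgrt of the neonatal receptor, and 0 were called in that comparison (list median -0.66). Among 9 tested genes of ITAM adaptors and partners of Fcer1g, 2 were called lower and 0 higher (list median -0.95). These were Tyrobp, the adaptor DAP12, at -2.60 (SE 0.38, limma adjusted p = 0.00905) and Clec4n, the lectin Dectin-2 that signals through Fcer1g, at -2.45 (SE 0.34, adjusted p = 0.00656). Tyrobp averaged 528 ± 178 TPM in control IgG, 86.9 ± 33.6 in αCSF1R, 391 ± 97.1 in IL-10-Fc and 468 ± 147 in BF10 tumors. Tyrobp, Clec4n and Oscar, another receptor that pairs with Fcer1g, were called higher in BF10 than in αCSF1R tumors, by 2.43, 1.87 and 2.45.

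Downstream of the receptors fewer genes passed. Of 7 Src and Syk family kinases 0 were called lower in αCSF1R tumors against control IgG (list median -0.63). Syk, the kinase that docks on the phosphorylated ITAM, stood at -0.63 (SE 0.75, limma adjusted p = 0.893), with 2.85 to 10.6 TPM in control IgG and 0.694 to 6.81 TPM in αCSF1R libraries. Of 14 adaptors and enzymes 0 were called (list median -0.49). Of 6 genes of inhibitory signalling 1 was called, Dok2, an adaptor that dampens kinase signals, at -1.93 (SE 0.26, limma adjusted p = 0.00564). The phosphatases recruited by FcγRIIB and related receptors were not called, with Inpp5d (SHIP1) at -0.85 (SE 0.81, limma adjusted p = 0.893) and Ptpn6 (SHP-1) at -0.41 (SE 0.70, adjusted p = 0.893). Of 9 genes of the phagocytic actin machinery 2 were called lower, Fermt3 (kindlin-3) at -2.15 (SE 0.36, limma adjusted p = 0.0225) and Coro1a (coronin) at -2.12 (SE 0.31, adjusted p = 0.00930). Dok2, Fermt3 and Coro1a were also called higher in BF10 than in αCSF1R tumors, by 1.97, 2.64 and 2.51. With the library set as a term, 1.93% of all tested genes (300) were called lower, so counts rise in general. In that fit 6 of the 14 adaptors and enzymes, 2 of the 7 kinases, 2 of the 6 inhibitory genes, 3 of the 9 actin genes, 3 of the 9 ITAM adaptors and partners, 2 of the 5 other Fc receptors and 0 of the 4 IgG heavy chains were called lower. Inpp5d was among them at -1.48 (limma adjusted p = 0.00813).

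**Figure D4:**
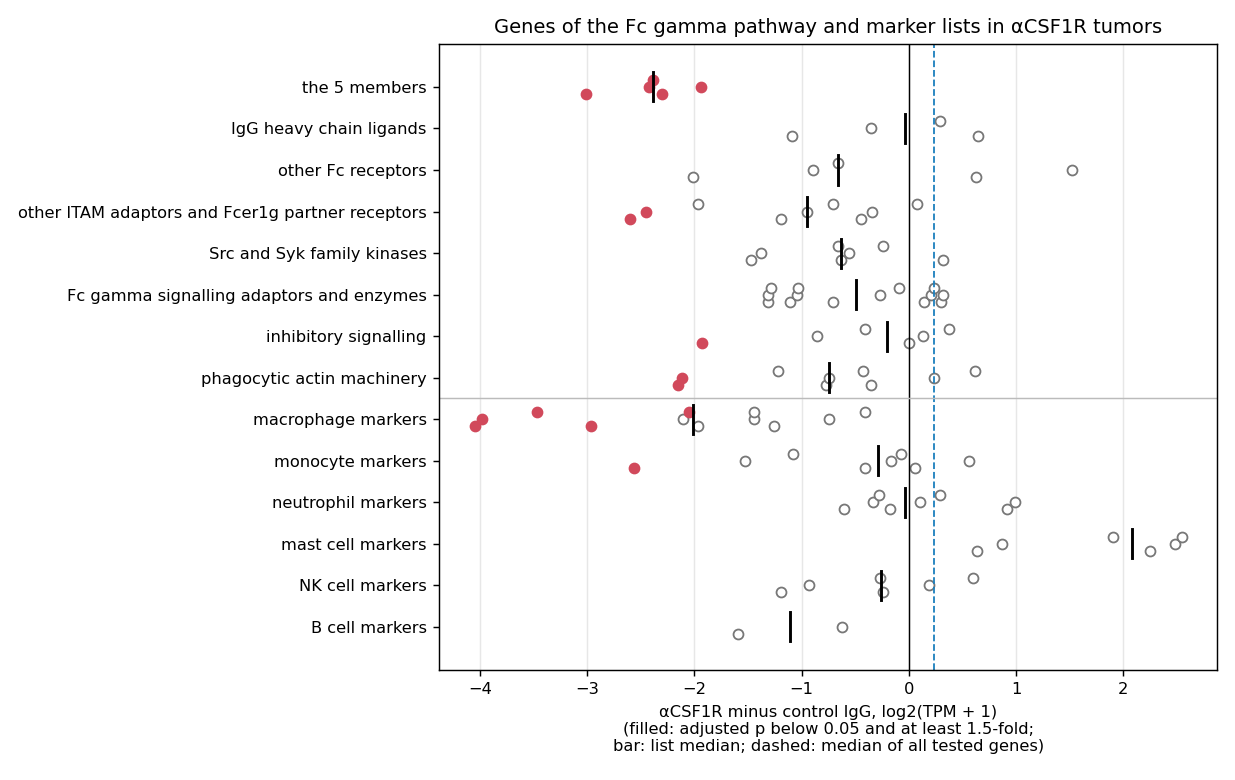
Difference between αCSF1R and control IgG tumors on the log2(TPM + 1) scale for each tested gene of the receptor list, 7 pathway lists and 6 marker lists, filled where called, with the list median as a bar and the median of all tested genes, 0.24, as a dashed line. The 5 receptor genes and the macrophage markers lie farthest to the left, and mast cell markers lie to the right of 0 with none called.

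Macrophage markers were lower in αCSF1R tumors, as the receptors were. Of 12 such markers 5 were called lower in αCSF1R than in control IgG tumors, beside 0.568% of all tested genes, and 12 of 12 lay below 0, with a median of -2.01. With the library set as a term, which called 1.93% of all tested genes lower, 9 of 12 were called lower. Their summed level was 147 to 961 TPM in αCSF1R libraries, 2180 to 3381 in control IgG, 2110 to 3692 in IL-10-Fc and 2401 to 4042 in BF10 libraries, and no marker was listed at 0 in all libraries. In every group this sum was lower in higher-sum than in lower-sum libraries. Within control IgG tumors the summed markers and the summed 5 members did not run in the same order. They stood at 2180 and 807 TPM in replicate 4, 3381 and 612 TPM in replicate 5, and 3149 and 863 TPM in replicate 7. Replicate 5 is the lower-sum library of that group, and replicates 4 and 7 ran in the same order in both sums. Within BF10 tumors the order was the same, at 4042 and 966 TPM in replicate 3, 2909 and 719 TPM in replicate 7, and 2401 and 704 TPM in replicate 6. Within IL-10-Fc and within αCSF1R tumors the 2 orders differed. The defining genes C1qa and Adgre1, a complement subunit and the F4/80 antigen, averaged 48.6 ± 27.8 and 3.55 ± 2.30 TPM in αCSF1R tumors against 694 ± 112 and 16.2 ± 0.447 TPM in control IgG tumors. In αCSF1R replicate 8, the higher-sum library of that group, the macrophage sum was lowest, at 147 TPM. Fcgr1 and Fcer1g were also lowest of the group there, at 2.45 and 43.8 TPM, Fcgr2b and Fcgr3 lay between the other αCSF1R libraries, at 52.7 and 31.2 TPM, and Fcgr4 was highest, at 19.7 TPM. Of 8 monocyte markers 1 was called lower, Ccr2, the chemokine receptor of inflammatory monocytes, at -2.57 (limma adjusted p = 0.00137). Of the markers of other cells with these receptors, 0 of 8 for neutrophils, 0 of 6 for NK cells and 0 of 2 tested for B cells were called by limma, with medians of -0.03, -0.25 and -1.10. The 6 mast cell markers had a median of 2.08 with 0 called, and their sum was 59.2 to 210 TPM in αCSF1R libraries against 14.6 to 29.3 TPM in control IgG libraries, highest in replicate 8. T cell, dendritic cell and tumor epithelium markers gave 0 calls of 7, 6 and 6 tested. With the library set as a term, 3 monocyte, 1 NK cell and 1 dendritic cell marker were called lower and 1 mast cell marker higher, and none of the neutrophil, B cell, T cell or tumor epithelium lists. What part the shift in these markers has in the receptor levels was not tested.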

How the data were processed

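Tumor RNA was isolated by the authors with TRIzol and sequenced on an Illumina instrument as strand-specific mRNA libraries. The submitters' processing notes name STAR 2.7.5a, RSEM 1.3.3 and DESeq2 1.28.0 and the build mm10 (GRCm38), without roles. The authors deposited FPKM values with 2 decimals for 55401 genes in 12 libraries, and 0 columns were left unmatched to a sample. How reads shared by related genes were split is not given in the sources used here. A further 4 deposited tables hold the authors' DESeq2 comparisons and were not used.

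Since FPKM is not a count, count models were left out. Values were scaled to the same sum in each library (TPM), and genes at 1 TPM or more in at least 3 libraries were kept, which left 15504 of 34194 genes above 0. The 4 group means of log2(TPM + 1) were estimated in limma 3.58.1 under R 4.3.3, with a trend in eBayes, from the 12 libraries together, with 8 residual degrees of freedom and two-sided tests. This scale understates the change of genes with low levels. A call needed a Benjamini-Hochberg adjusted p below 0.05 and a change of 1.5-fold. Depth was estimated from the step that a lone read of 75 bases makes in FPKM. The procedure was checked on simulated data.

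The members and lists were chosen with earlier results of these data known, and so were the library sets, split at an FPKM sum of 700000. Named genes are the 5 members, the 3 genes most like each over 12 libraries, and from each pathway list the IgG heavy chains, Tyrobp, Syk, Inpp5d, Ptpn6 and up to 4 called genes. C1qa, Adgre1, Fcgrt and Ccr2 were named after their values were seen. Coordinates are from GENCODE M21, promoters from RefSeq, where all 5 members matched, and alignments from Biopython 1.88.

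Alternatives were a pseudocount of 0.1, FPKM not rescaled, scaling by the median of ratios, no filter, the library set as a term, a replicate block, a fit on the libraries compared alone, no limit on fold, leaving out each library, and likeness with set means removed.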

Additional observations from a re-analysis of the deposited data

Results flagged for a closer look

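The difference between BF10 and IL-10-Fc tumors departed from that between αCSF1R and control IgG tumors for 4 of the 5 genes. This was by limma's test of the contrast itself. The non-additive contrast on the log2(TPM + 1) scale was 3.54 for Fcgr1, 2.62 for Fcgr3, 2.58 for Fcer1g and 2.00 for Fcgr2b. The members were called lower in αCSF1R than in control IgG tumors, while between BF10 and IL-10-Fc tumors limma called 0 of 5. With all 12 libraries and no term beside the group, 0 of 5 had an unadjusted p below 0.05 there. With the library set as a term, Fcgr1 went below it (limma unadjusted p = 0.0283) and was not called. Fcgr1, Fcgr3 and Fcer1g kept the call of the non-additive contrast in each of the 12 fits without 1 library, and Fcgr2b lost it in 10. With the median of ratios 1 of 5 members was called in this contrast, Fcgr1, and with the replicate block 0 of 5.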

How the results depend on the processing

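The 5 genes kept their direction in every refit of the comparisons of αCSF1R with the other groups and of the non-additive contrast. A call was lost in 12 of 100 refits against control IgG, 14 of 100 against BF10, 19 of 100 against IL-10-Fc and 19 of 95 of the non-additive contrast, where 2 gained one. Each refit is 1 gene under 1 alternative. Dropping the limit on fold is counted among them, though it reuses the main values and cannot lose a call. Against control IgG all losses came with the median of ratios, the replicate block or the 6 libraries compared alone. Without 1 library, αCSF1R against control IgG lost no call, and Fcgr4 lost its call in 1 of 12 fits against BF10 and in 5 of 12 against IL-10-Fc. The number of members called for any difference among the groups ranged from 3 to 5 in these fits, the lowest without αCSF1R replicate 6. Scaling by the median of ratios called 3 of 5 members in αCSF1R against control IgG, 2 in BF10 against αCSF1R, 1 in IL-10-Fc against αCSF1R, 1 in the non-additive contrast and 2 among the 4 groups. The fit on the 6 libraries compared, with 4 residual degrees of freedom, called 0, 0 and 1 of 5 in the first 3 of these. The cause was not tested.

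With the replicate number as a block, 2 residual degrees of freedom were left and 0 members were called in each of these 5 tests, with changes of -2.85 to -1.91 for αCSF1R against control IgG (limma adjusted p = 0.0530). Whether the numbers pair the samples is not known. The deviations of same-numbered libraries correlated at -0.66 to 0.42, and only 2 of 7 pairs exceeded 0.1. These 2 pairs were the only ones within 1 library set, and the others joined libraries of different sets. The correlations therefore cannot tell a pairing by number from the library set.

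Among control IgG, IL-10-Fc and BF10 tumors, between which no member was called, some signs turned. This was so in 10 of 100 refits of BF10 against control IgG, 3 of 100 of IL-10-Fc against control IgG and 2 of 100 of BF10 against IL-10-Fc. In every refit Fcgr1, Fcgr3, Fcgr4 and Fcer1g stayed above 0 for BF10 minus IL-10-Fc. For IL-10-Fc minus control IgG, Fcgr1, Fcgr3 and Fcgr4 stayed below 0 in every refit. With the median of ratios BF10 minus control IgG turned to -0.092 for Fcgr1 and -0.15 for Fcer1g, and with the library set as a term to 0.034 for Fcgr4. Without 1 library, BF10 minus control IgG ranged from -0.15 to 0.16 for Fcgr2b, -0.26 to 0.045 for Fcgr3 and -0.47 to 0.17 for Fcgr4. IL-10-Fc minus control IgG ranged from -0.22 to 0.030 for Fcgr2b and -0.11 to 0.024 for Fcer1g, and BF10 minus IL-10-Fc from -0.084 to 0.22 for Fcgr2b. With set means removed, 1 of the 3 genes most like Fcgr2b stayed among its 3 nearest. Depth was alike in all libraries, and the spread of 3 tumors sets what could be detected.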
